A study of Mus musculus with 3 samples.

Results

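The cytochrome P450 genes described here are the 87 rows, of 24458 in the expression table, whose gene symbol is Cyp followed by a digit, a letter and a digit, as in Cyp2c29, Cyp3a11 or Cyp4f14. They were chosen by symbol alone. Of these, 72 rows were clustered: they lay in 7 runs of at least 4 Cyp rows of 1 chromosome, each within 10 table rows of the next. The other 15 rows were isolated. RNA was sequenced from the microdissected dentate gyrus, the hippocampal field built mainly of granule neurons, of 3 adult C57BL/6 mice aged 8 weeks, with 1 library per animal. All 3 libraries carry the group label E24, which the labels do not spell out, and the labels name no transgene or agent for them. The name of the deposited set of values holds the terms WT and ECT, which are not spelled out there either. The study asked how neuronal activation alters chromatin accessibility and RNA in this tissue. The samples form 1 group, so the levels below are described within it and no conditions are compared.

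Cytochrome P450 enzymes are haem proteins that insert an oxygen atom into lipids, steroids, vitamins and drugs, drawing electrons from a reductase, and many Cyp1 to Cyp4 members are best known from the liver. Families such as Cyp2c, Cyp2d, Cyp3a and Cyp4a arose by tandem duplication, so their genes stand side by side and resemble each other in sequence. In brain, some members are known for the oxidation of arachidonic acid, oxysterols or vitamin D.

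The promoter letters already set apart some clustered genes from some isolated ones. The 4 stretches here are the 120 bases before the gene start, 5′ to 3′ on the gene's strand, from RefSeq on build GRCm38.p6. Capitals mark CG dinucleotides and the motif TATAAA, read on either strand. Cyp2c29 and Cyp3a11 stand for the Cyp2c and Cyp3a runs, whose rows were mostly listed at 0. Cyp2j6 is the clustered gene whose row held nearly the same value in every library, and Cyp2r1 is an isolated gene with a high row.
Cyp2c29, chr19:39286965-39287084, plus strand: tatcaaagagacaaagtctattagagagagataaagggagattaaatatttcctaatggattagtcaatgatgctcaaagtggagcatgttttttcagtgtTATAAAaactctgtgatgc
Cyp3a11, chr5:145879855-145879974, minus strand: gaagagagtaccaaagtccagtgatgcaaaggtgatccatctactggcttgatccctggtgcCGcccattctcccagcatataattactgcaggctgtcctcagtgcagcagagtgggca
Cyp2j6, chr4:96553652-96553771, minus strand: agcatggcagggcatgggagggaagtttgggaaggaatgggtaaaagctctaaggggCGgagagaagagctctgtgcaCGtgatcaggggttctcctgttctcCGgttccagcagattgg
Cyp2r1, chr7:114562973-114563092, minus strand: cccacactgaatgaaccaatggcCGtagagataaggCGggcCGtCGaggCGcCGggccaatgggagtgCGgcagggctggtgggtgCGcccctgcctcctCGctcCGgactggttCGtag
The Cyp2c29 stretch holds 0 CG dinucleotides and a TATAAA. The Cyp3a11 stretch holds 1 CG, the Cyp2j6 stretch 3 and the Cyp2r1 stretch 11, and these hold no TATAAA in these windows.

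A RefSeq promoter was found for 66 of the 87 members, and CG was counted over the full 250 bases before the start. The median was 2 CG dinucleotides in 55 clustered genes, with a range of 0 to 15, 3 in 11 isolated genes, with a range of 1 to 17, and 6 in all 27025 promoters. At least 5 CG stood in 2 of 55 clustered promoters (3.64%), in 4 of 11 isolated ones (36.4%) and in 55.5% of all promoters. The 2 clustered ones were Cyp2s1, with 15, and Cyp4f39, with 10. The isolated ones were Cyp4v3 with 17, Cyp2r1 with 16, Cyp1b1 with 12 and Cyp2w1 with 5. TATAAA was found on either strand in 23 of 55 clustered promoters (41.8%), in 4 of 11 isolated ones (36.4%) and in 13.0% of all promoters. By run it stood in 5 of 5 Cyp2d, 7 of 13 Cyp2c, 5 of 8 Cyp3a and 0 of 6 Cyp4f promoters. Low CG content and the TATAAA letters were thus unevenly spread over the families, and a match of letters is a description of the window only.

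**Figure D1:**
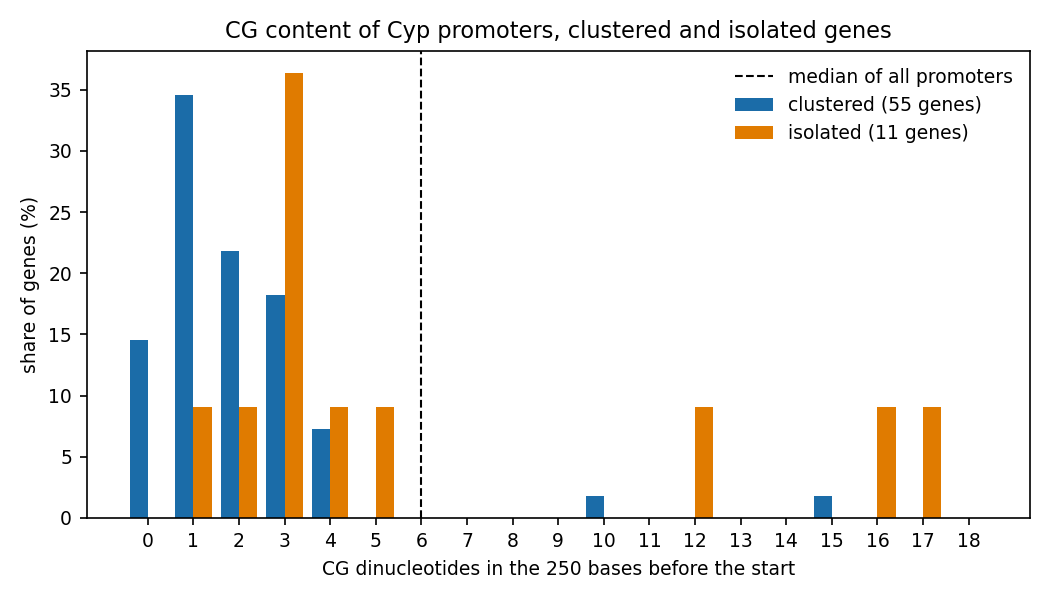
CG dinucleotides in the 250 bases before the gene start (x axis, count) against the share of genes (y axis, %), for 55 clustered and 11 isolated Cyp genes. The dashed line is the median of all 27025 RefSeq promoters, 6, and 2 clustered and 3 isolated genes lie above it.

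The clustered rows held low values and the isolated rows did not stand below the table as a whole. Levels are in RPKM, a read count divided by the length of the gene and by the size of the library. Values were averaged as log2(RPKM + 1), a scale that understates the change of low values. The clustered rows averaged 0.74 on this scale, the isolated rows 1.89 and the whole table averaged 1.88. The difference between clustered and isolated rows was -0.96, -1.24 and -1.22 in replicates 1, 2 and 3, a mean of -1.14 ± 0.15 (SD, n = 3). The clustered mean was the lower in each of the 3 libraries. The exact two-sided sign-flip permutation test gave p = 0.25, the smallest p that 3 libraries allow, so this design cannot pass 0.05. With a pseudocount of 0.1 RPKM in place of 1 the difference was -2.30. Against the mean of all rows in the same library, clustered rows were lower by 1.13 ± 0.11 (SD, n = 3), and isolated rows differed by -0.11, 0.17 and -0.04.

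Counted as shares of rows, the same pattern held in each animal. Of the 72 clustered rows, 19, 16 and 14 held 1 RPKM or more in replicates 1, 2 and 3, a mean share of 22.7% ± 3.50 (SD, n = 3). Of the 15 isolated rows, 9 did so in each library, which is 60%. These were not the same 9 rows each time, and 6 of the 15 did so in all 3 libraries. The share over all rows was 49.7% ± 0.437 (SD, n = 3). Clustered rows thus lay below the table in each library, while the isolated share rests on few rows and is near that of the table. An exact 0 was listed for 63.0% ± 6.26 of clustered rows, 26.7% ± 6.67 of isolated rows and 30.2% ± 1.27 of all rows (SD, n = 3). An exact 0 can be a failed estimate, so such rows are called listed at 0 and not absent. In bulk tissue, fewer cells of a type and less RNA per cell cannot be told apart.

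**Figure D2:**
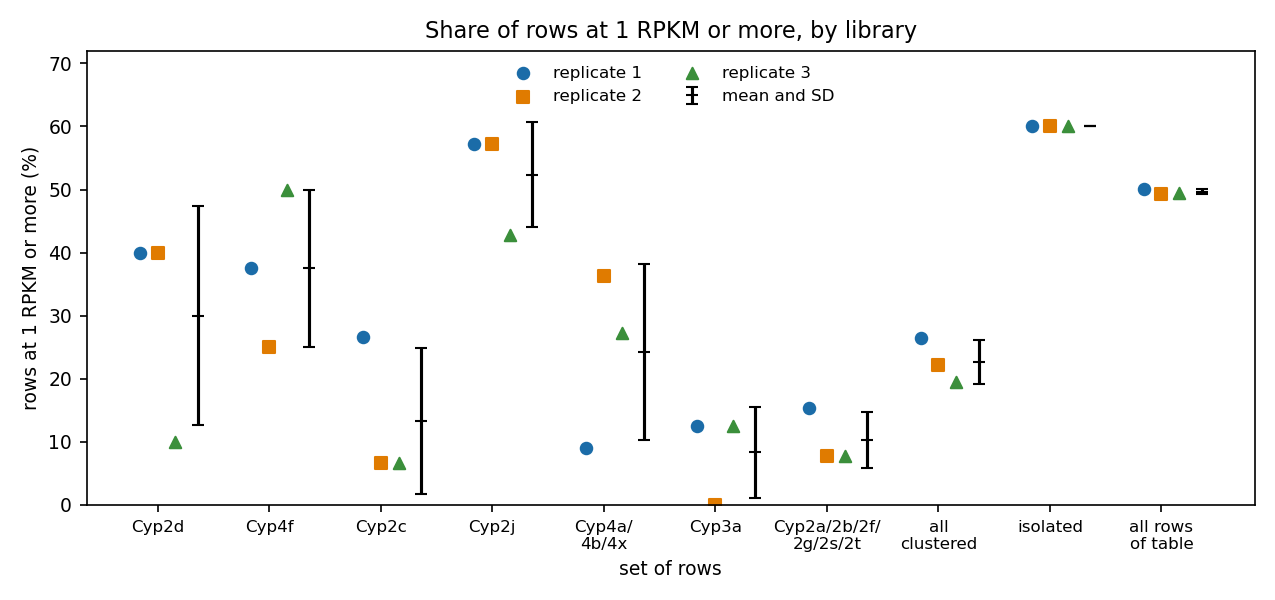
Share of rows at 1 RPKM or more (y axis, %) in each of the 7 runs, in all clustered rows, in isolated rows and in the whole table; markers are the 3 libraries and bars the mean and SD. Clustered rows averaged 22.7%, isolated rows 60% and all rows 49.7%.

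Row names and values did not keep the same register in every library, so a value below belongs to a row of the table, named by its symbol, and no statement about the gene itself is made from it. In replicate 2 the row named for Cyp7b1, an oxysterol hydroxylase, held 105.1 RPKM, and in replicates 1 and 3 it held 0 and 19.2. Values close to 105.1 stood nearby in the others: 99.3 at the Armc1 row, 3 rows away, in replicate 1, and 98.7 at the Bhlhe22 row, 2 rows away, in replicate 3. Among rows with a value of 5 RPKM or more in a library, a counterpart within 1.1-fold was found no more than 5 rows away in both other libraries for 2 of 17 clustered rows (11.8%), 2 of 8 isolated rows (25%) and 38.2% of all rows. All 3 values stood at the same row for Cyp2j6 alone among these Cyp rows, and for 479 of 13028 rows of the table. A mean over a run of rows depends less on which row holds a value than a single row does. The isolated rows form no runs, so their mean and share, given above, carry the full limit of single rows. Rows were also out of genomic order at 29.4% of adjacent positions.

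Each run was then set against the rest of the table. The first to the last Cyp row formed 1 block, all other rows were tiled in blocks of 10, and the offset of each block from the mean of all rows was tested with limma over 2600 blocks, a test of whether the offset repeats between libraries and not of whether it is unusual. At an adjusted p under 0.05, 6 of 7 runs lay below the mean of all rows, where 32.5% of all blocks did. None of the 7 lay above it, where 36% of blocks did. Before adjustment the count above was also 0, since every run's offset was negative. The offsets ran from -0.47 to -1.68 on the log2(RPKM + 1) scale.

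The Cyp3a run, on chromosome 5 at 146106138 to 146924859 (mm9, as all table coordinates here), had the lowest mean. Cyp3a enzymes are the main drug and steroid hydroxylases of liver and gut. Of its 8 Cyp rows, 6 were listed at 0 in every library. The Cyp3a41a row held 5.21, 0 and 0 RPKM and the Cyp3a44 row 0, 0 and 6.09 RPKM in replicates 1 to 3. No row of the run held 1 RPKM or more in more than 1 library. The block means were 0.29, 0 and 0.31, the offset was -1.68 (SE 0.09) and limma's adjusted p was 0.00130.

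The Cyp2c run, on chromosome 19 at 39081508 to 40261776, had the most Cyp rows, 15 in 18 table rows. Cyp2c enzymes form epoxides of arachidonic acid and metabolise drugs. Of its Cyp rows, 8 were listed at 0 throughout. The Cyp2c70 row, named for a bile acid hydroxylase, held 1.20, 3.40 and 3.30 RPKM, the only Cyp2c row in the run at 1 RPKM or more in all 3 libraries. The rows for Cyp2c54, Cyp2c69 and Cyp2c55 held 4.07, 3.90 and 2.92 RPKM in replicate 1 and 0 in the others. Replicate 1 thus had the highest block mean, 0.43 against 0.18 and 0.18. The offset was -1.61 (SE 0.07), with an adjusted p of 0.000922 by limma.

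The run of Cyp2a, Cyp2b, Cyp2f, Cyp2g, Cyp2s and Cyp2t genes on chromosome 7, at 26587494 to 27943583, had nearly as low a mean. It held 13 Cyp rows, of which 7 were listed at 0 throughout. The Cyp2f2 row, named for an enzyme best known from airway club cells, held 39.7, 27.6 and 26.6 RPKM. The Cyp2g1 row, named for an olfactory enzyme, held 12.2 RPKM in replicate 1 and 0 in the other libraries. Apart from these, no Cyp row of the run reached 1 RPKM in any library. The block means were 0.47, 0.27 and 0.26 and the offset was -1.55 (SE 0.06), and limma's adjusted p was 0.000746. The Cyp2f2 row was the second to last Cyp row of the run and the only one high in every library.

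The run of Cyp4a, Cyp4b and Cyp4x genes on chromosome 4, at 114781286 to 115320310, held its high values at different rows in different animals. Cyp4a enzymes hydroxylate the end carbon of fatty acids and are known targets of PPAR alpha. The Cyp4x1 row held 0.0886, 26.2 and 0 RPKM, and the Cyp4a10 row 0, 0 and 21.2. The Cyp4b1 row held 0, 14.7 and 13.5 RPKM, and the Cyp4b1-ps2 row, a pseudogene, 0.135, 19.9 and 0. Replicate 1 lacked each of these high values at these rows, and 15.7 RPKM stood at the Stil row, 2 rows from Cyp4b1, in that library. The offset was -1.12 (SE 0.18) with an adjusted p of 0.0137 by limma. The call was lost without replicate 1 (0.0791), without replicate 3 (0.0704) and without rows listed at 0 throughout (0.0755), each an adjusted p from limma.

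The Cyp4f run, on chromosome 17 at 32589667 to 33102661, held low to moderate values in most of its rows. Cyp4f enzymes hydroxylate leukotrienes and other fatty acids. Only 1 of its 8 Cyp rows was listed at 0 throughout. The Cyp4f17 row held 1.06, 7.33 and 7.09 RPKM, a 6.94-fold span from lowest to highest. The Cyp4f15 row held 2.94, 0.0570 and 2.84 RPKM, and the Cyp4f41-ps row 2.51, 1.77 and 2.07. Replicate 1 was low at Cyp4f17 and replicate 2 at Cyp4f15, and the pseudogene row was close to even. The offset was -0.88 (SE 0.06), with an adjusted p of 0.00250 by limma.

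The Cyp2j run, on chromosome 4 at 95709350 to 96330810, was the highest of the runs called below the table. Cyp2j enzymes are epoxygenases that convert arachidonic acid to epoxyeicosatrienoic acids. It was the only run with no Cyp row listed at 0 throughout. Of its 7 Cyp rows, 52.4% ± 8.25 held 1 RPKM or more (SD, n = 3), against 49.7% of all rows. The Cyp2j6 row held 30.6, 31.1 and 31.7 RPKM, and the Cyp2j9 row 16.5, 4.96 and 8.40. The other high values moved among rows: 9.60 RPKM stood at Cyp2j11 in replicate 1, 12 at Cyp2j12 in replicate 2 and 12.3 at Cyp2j8 in replicate 3. A value of this size thus stood at a different Cyp2j row in each library. The offset was -0.47 (SE 0.05), with an adjusted p of 0.00452 by limma. This offset is of the block, which also holds 6 rows with other symbols, all with loci outside the run. The 7 Cyp rows alone averaged 1.87 as log2(RPKM + 1), against 1.88 for all rows. They differed from all rows by 0.15, -0.02 and -0.15 in replicates 1, 2 and 3, so the Cyp rows themselves did not lie below the table. With 5 rows left out at each end of the run, 3 rows remained and the offset was -0.83 with an adjusted p of 0.222 by limma, which ends the call.

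The Cyp2d run, on chromosome 15 at 82200956 to 82624675, was the 1 run not called. Cyp2d enzymes metabolise many drugs that act on the nervous system. The Cyp2d26 row held 134.8, 114.6 and 0 RPKM, the highest values of any clustered row. The Cyp2d22 row held 26.2, 23.5 and 8.06 RPKM and the Cyp2d13 row 8.58, 7.78 and 0. Replicate 3 was the lowest at each of these rows, and in it 114.7 RPKM stood 6 rows from Cyp2d26, at a row whose symbol had been turned into a date. The block means were 1.56, 1.495 and 0.70, the offset was -0.63 (SE 0.22) and limma's adjusted p was 0.0875. The run was called below the mean of all rows without replicate 3 (offset -0.35, adjusted p 0.0473), with a pseudocount of 0.1 RPKM (adjusted p 0.0276) and with 5 rows left out at each end (offset -1.34, adjusted p 0.0146), all by limma.

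**Figure D3:**
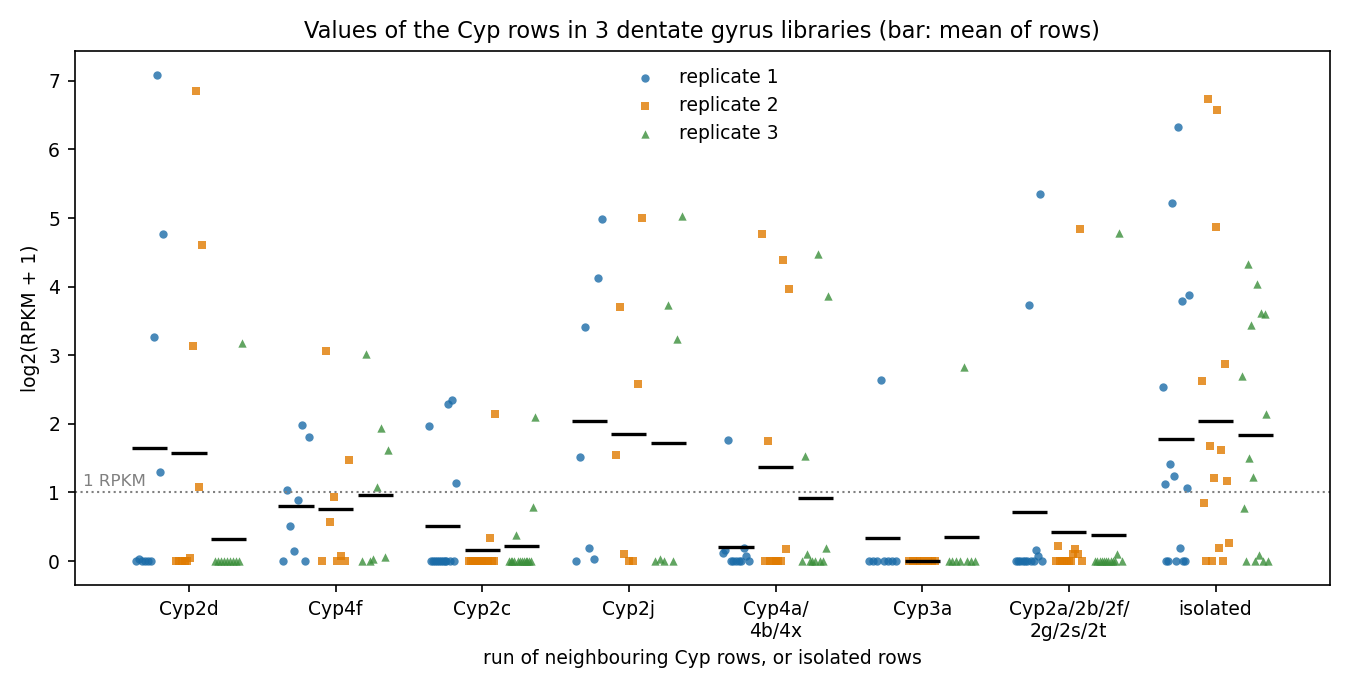
Values of the Cyp rows as log2(RPKM + 1) (y axis) in the 7 runs and in the isolated rows (x axis); each point is 1 row in 1 library, and the bar is the mean over the Cyp rows of that library. Most rows of the Cyp2c, Cyp3a and chromosome 7 runs sit at 0, and the highest clustered values are those of Cyp2d26 in replicates 1 and 2.

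Within the runs, rows near an end reached 1 RPKM more often than those further in, with a wide gap in replicates 1 and 2 and a narrow one in replicate 3. Of the clustered Cyp rows, 22 lay at least 5 rows from an end, and 12.1% ± 6.94 of them held 1 RPKM or more, against 27.3% ± 6.43 of the 50 rows nearer an end (SD, n = 3). By library the inner and outer shares were 13.6% and 32% in replicate 1, 4.55% and 30% in replicate 2 and 18.2% and 20% in replicate 3. The Cyp3a run has no such inner row, and the other runs contribute unequally to the inner and outer rows. Position in a run and the run itself are thus not separated here, and the difference was not tested. The limit of 5 rows is that of an alternative chosen after the values were seen. Over all rows, Cyp or not, the share was 54.8% ± 0.412 from 15 to 6 rows outside a run and 63.3% ± 3.60 from 5 to 1 rows outside. It was 33.3% ± 4.12 over the first 3 rows inside and 20% ± 3.46 from 3 to 6 rows inside (SD, n = 3). In each library the share thus fell from the nearer outside zone to the first inner zone and again to the second. Both outside zones lay above the level of the table. Row by row the fall was not steady. In replicate 1 the share was 42.9% at 1 row outside and again at 2 rows inside. Of 14 run ends, 11 had a row 6 rows inside. The run spans also held 33 rows with other symbols. The loci of 26 of these lie outside the genomic span of the run, and 13 of the 26 were under 1 RPKM in all libraries, against 33.0% of all rows. In the Cyp2c run these were the rows named for Hells, Tbc1d12 and Myof.

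**Figure D4:**
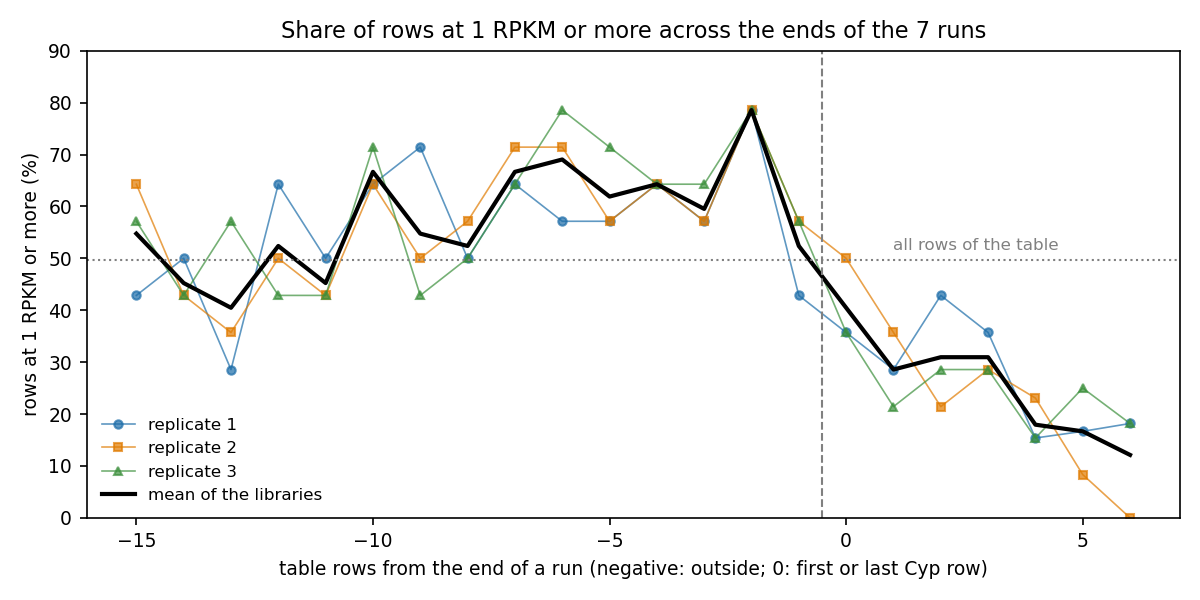
Share of table rows at 1 RPKM or more (y axis, %) by distance in rows from the first or last Cyp row of the 7 runs (x axis, negative outside, 0 at the end row), for each library and their mean. The mean falls from 40.5% at the end row to 12.1% 6 rows inside; the dotted line is the share over all rows, 49.7%.

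The isolated rows were a mixed set. At 1 RPKM or more in all 3 libraries stood 6 of 15, those named for Cyp2r1, Cyp4v3, Cyp4f14, Cyp1a1, Cyp2u1 and Cyp3a13. The Cyp2r1 row, named for the vitamin D 25-hydroxylase, held 79.0, 94.4 and 15.5 RPKM. The Cyp4v3 row, for a fatty acid hydroxylase, held 12.8, 2.06 and 11.3 RPKM, a 6.20-fold span. The Cyp2r1 row was lowest in replicate 3 and the Cyp4v3 row in replicate 2, so no library was low at both rows. Near values stood close by in those libraries. In replicate 3, 100.3 RPKM stood at the Mical2 row, 4 rows from Cyp2r1. In replicate 2, 12.04 RPKM stood at the Mtmr7 row, 1 row from Cyp4v3.

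Other isolated rows were mostly low, and some were even. Those for Cyp3a13, Cyp2u1 and Cyp4f14 stayed within 1.5-fold in all libraries, and those for Cyp1b1, Cyp1a1 and Cyp1a2 did not. The Cyp3a13 row, the 1 Cyp3a gene outside the Cyp3a run, held 1.36, 1.32 and 1.34 RPKM. The Cyp2u1 row, named for a fatty acid hydroxylase known from brain and thymus, held 1.67, 2.19 and 1.83 RPKM. The Cyp1b1 row, for an enzyme of oestrogen and retinoid metabolism, held 1.18, 0.801 and 0.715 RPKM. The first 2 of these rows stayed above 1 RPKM in every animal, and Cyp1b1 lay on both sides of it. The Cyp4f14 row, 12 rows beyond the Cyp4f run and thus just outside the rule, held 4.81, 5.14 and 5.52 RPKM. Its locus, on chromosome 17 at 33042014 to 33054287, lies inside the genomic span of the Cyp4f run, so it is isolated by its place in the table and not in the genome. The Cyp1a1 row, for an aryl hydrocarbon receptor target, held 1.08, 1.24 and 3.41 RPKM. The Cyp1a2 row, 8 rows from it, held 0, 6.29 and 11.2, and the pair is too short to form a run.

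Some isolated rows were high in 1 library and at 0 in another. Cyp7a1, the rate-limiting enzyme of bile acid synthesis, is a liver gene, and its row held 36.1, 0 and 9.81 RPKM. The row for Cyp8b1, the sterol 12-alpha-hydroxylase, held 13.7, 0.196 and 0 RPKM, and a value of 14.4 stood at the Hhatl row, 4 rows away, in replicate 2. The Cyp2w1 row held 0, 28.3 and 0 RPKM, with 31.7 at the Cox19 row in replicate 1 and 28.3 at the Zan row in replicate 3, each 1 row away. At each of these rows at least 1 library was at 0, while near values stood a few rows off for Cyp8b1 and Cyp2w1. The rows for Cyp2c44 and Cyp4f18 were listed at 0 in all libraries. The Cyp2e1 row, for the ethanol-inducible enzyme, held 0.144, 0.143 and 0.0589 RPKM, below 1 RPKM with an adjusted p of 0.00147 by limma.

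**Figure D5:**
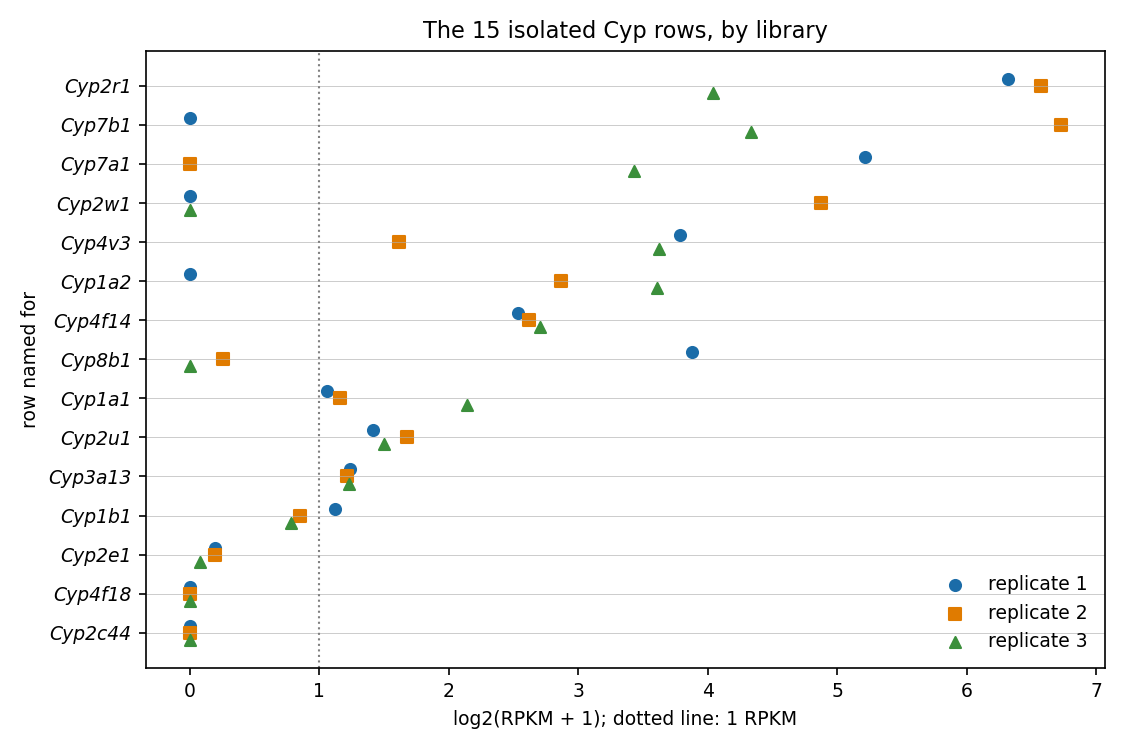
Values of the 15 isolated Cyp rows as log2(RPKM + 1) (x axis), one line per row and one marker per library; the dotted line is 1 RPKM. The markers nearly coincide for Cyp3a13 and Cyp4f14 and lie far apart for Cyp7b1, Cyp7a1 and Cyp2w1.

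Counted row by row, a smaller share of Cyp rows than of all rows held 1 RPKM or more throughout. In all 3 libraries, 32 of 87 Cyp rows (36.8%) were listed at 0, against 18.8% of all rows. These were 30 of 72 clustered rows (41.7%) and 2 of 15 isolated rows. At 1 RPKM or more in every library stood 13 of 87 (14.9%), against 32.4% of all rows, with 7 clustered (9.72%) and 6 isolated (40%). Under 1 RPKM in every library were 47 (54.0%), against 33% of all rows, and the remaining 27 crossed the level between libraries. Of the 40 Cyp rows at 1 RPKM or more in a library, 6 (15%) were within 1.5-fold in all libraries, against 20.2% of such rows in the table, a difference of few rows that was not tested. Those 6 were Cyp2j6, Cyp2f2, Cyp4f41-ps, Cyp4f14, Cyp2u1 and Cyp3a13, which are 3 of 28 clustered (10.7%) and 3 of 12 isolated rows (25%).

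A limma test of log2(RPKM + 1) against the level of 1 RPKM was fitted to the 19860 rows not listed at 0 throughout, of which 55 were Cyp rows. At an adjusted p under 0.05, 6 of the 55 (10.9%) lay above the level, where 22.8% of all tested rows did. Cyp2r1 lay highest, by 4.65 on this scale (SE 0.66, adjusted p 0.0189), then Cyp2j6 by 4.01 (SE 0.12, adjusted p 0.000711) and Cyp2f2 by 3.99 (SE 0.19, adjusted p 0.00155). Cyp2d22 lay above by 3.19 (SE 0.43, adjusted p 0.0170), Cyp2j9 by 2.31 (SE 0.41, adjusted p 0.0322) and Cyp4f14 by 1.62 (SE 0.29, adjusted p 0.0319). The highest row thus had the widest error and Cyp2j6 the smallest. Of these 4 are clustered, of 42 clustered rows tested, and 2 isolated, of 13. Only Cyp2j6 and Cyp2f2 were called when any 1 library was left out. By limma's adjusted p, Cyp2d22 was lost without replicate 1 (0.101) or replicate 2 (0.0970), and Cyp2r1 likewise (0.125 and 0.0944). Cyp4f14 was lost without replicate 2 (0.145) or replicate 3 (0.189), and Cyp2j9 without replicate 1, 2 or 3 (0.0728, 0.0610 and 0.146). In turn, Cyp2d26 was called above the level without replicate 3 (0.0104), Cyp4b1 and Cyp4f17 without replicate 1 (0.00732 and 0.0196) and Cyp4v3 without replicate 2 (0.0286), which is the library where each of them was lowest. Without replicate 2, 3 Cyp rows in all were above the level, and the share over all rows was not taken at that setting. Below the level were 12 of 55 (21.8%), where 13.9% of all tested rows were, and of these only Cyp2e1 is isolated.

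Shared sequence limits what a single clustered row can show. In the GENCODE M21 transcripts, 41 of 71 clustered genes share at least 10% of their 50-base words with other genes, against 0 of 14 isolated genes. The median shared was 13.7% in clustered and 0.212% in isolated genes. The same count was not made for genes outside the Cyp set, so how usual such sharing is was not tested. The share is taken over all other genes together, and that with any 1 gene can be lower. The highest sharing was in the Cyp3a run, with 98.6% for Cyp3a41a and 93.5% for Cyp3a41b, followed by 72.1% for Cyp2c40. For Cyp4a12a and Cyp4a12b it was 48.9% and 49.4%. The sources used here do not say how reads that match several copies were counted, so the levels of these rows are uncertain. The Cyp2j run shares little, at most 1.34%, and Cyp2j6 shares 0.422% and Cyp2f2 0. The 2 clustered rows called under each omission are thus named for genes with little or no shared sequence. The Cyp2j9 row is also named for a gene that shares 0%, and its call was lost under each omission. No link between sharing and a steady call is drawn.

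Genes that work with the P450 enzymes were read from lists by the same row test, in which 22.8% of all tested rows lay above the level and 13.9% below. The counts are given as a description, and several lists lie near these shares. Of 7 redox partner rows found, 5 were above 1 RPKM, 0 below and 1, that of the P450 reductase Por, was listed at 0 throughout. The Cyb5b row, for the outer mitochondrial cytochrome b5, held 56.5, 51.0 and 52.3 RPKM, and the Cyb5r3 row 75.5, 299.3 and 21.9. Cyb5b was even and Cyb5r3 was highest in replicate 2. Of 14 rows of xenobiotic and sterol receptors, 3 were above the level and 2 below, and Nr1h2, an oxysterol receptor, held 32.1, 16.6 and 16.6 RPKM. The row for Ahrr, the repressor of the aryl hydrocarbon receptor, held 1.01, 62.8 and 64.5 RPKM. Replicate 1 was the library apart at both. Of 13 haem genes, 3 were above and 1 below, with 0.834, 178.3 and 171.7 RPKM at Hmox2, a haem oxygenase, and 7.24, 45.7 and 5.72 at Blvrb, a biliverdin reductase. Of 8 epoxide and arachidonate genes, 1 was above and 3 below. The 1 above was Ephx2, the soluble epoxide hydrolase that acts on the products of Cyp2c and Cyp2j enzymes, whose row held 32.3, 29.3 and 29.4 RPKM (adjusted p 0.000767 by limma). Ephx1, the microsomal hydrolase, held 9.66, 1.97 and 2.07 RPKM.

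The Cyp families numbered with 2 digits, which the symbol rule leaves out, had 16 rows, with 1 above the level, 5 below and 2 listed at 0 throughout. The row above was Cyp51, the lanosterol demethylase of cholesterol synthesis, at 14.5, 35.9 and 12.5 RPKM (adjusted p 0.0124 by limma). The Cyp21a1 row, for the steroid 21-hydroxylase, held 23.5, 0.323 and 38.5 RPKM. The Cyp46a1 row, for the cholesterol 24-hydroxylase of neurons, held 1.11, 22.7 and 21.7 RPKM, and was chosen after its values were seen. With these families added to the isolated rows, the isolated share at 1 RPKM or more was 49.5%, close to the 49.7% of the table.

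Rows named for markers were checked against the labelled tissue and the liver by the same row test. In it 22.8% of all tested rows lay above 1 RPKM and 13.9% below. Each list is short, so the counts are a description only. Of 10 liver genes, 0 were above 1 RPKM and 3 below by limma, with Ahsg at 0.0418, 33.5 and 33.96 and Fgb at 46.1, 19.0 and 0 RPKM. The hepatocyte marker Alb was at 0.831, 0 and 0 RPKM. Of 6 granule neuron markers, 2 were above the level. Nrn1 held 309.8, 298.6 and 322.9 RPKM, and Calb1 held 7.18, 91.3 and 89.8, with an adjusted p of only 0.0499 by limma. Prox1, the defining factor, was not called, at 1.58, 39.3 and 0 RPKM. C1ql2 was not called either, at 0.698, 0.476 and 0.462 RPKM, nor were Neurod2 and Dsp. Of 5 endothelial markers, Cldn5 was above the level at 35.5, 30.1 and 28.6 RPKM, Pecam1 and Slco1a4 were below it and Flt1 was listed at 0 throughout. All 4 microglia markers were above it, 1 of 4 oligodendrocyte, and 0 of 5 astrocyte, 0 of 5 mural and meningeal, 0 of 4 choroid plexus and 0 of 4 hepatocyte markers. Summed over each list, the levels ran from 81.96 to 90.4 RPKM for microglia, 28.8 to 53.3 for endothelial, 4.82 to 139.8 for choroid plexus and 1.89 to 33.99 for hepatocyte markers. The share of other cell types in the values of the Cyp rows was not tested.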

How the data were processed

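RNA of 3 dentate gyrus samples, each from a separate animal per the labels, was measured by RNA sequencing. The authors deposited RPKM values per gene, made with TopHat2 and Cufflinks on mm9, per the submitters' processing notes; no source used here gives their versions, the annotation or any filter. Read depth is unknown, so no counting interval is given. A further 9 value columns match no listed sample and were not used. The members and lists were chosen with earlier results of these data known. Values were analysed as log2(RPKM + 1) in table order. Rows and blocks were tested by limma (version 3.58.1, R 4.3.3; a model with an intercept alone, two-sided, Benjamini-Hochberg over all rows or blocks, adjusted p under 0.05). The procedure was tested on simulated data. These had even noise, no rows listed at 0 and no displaced values, so the test does not cover those traits here. Named rows were, in each run, the 2 with the highest mean and the one with the highest single value; isolated rows at 1 RPKM or more throughout, the 10 highest by mean and those listed at 0; and the 2 highest of each list. Other named rows were chosen after their values were seen, as was the alternative that leaves out 5 rows at each end of a run. RefSeq promoters (GRCm38.p6) and GENCODE M21 transcripts were matched by symbol, and their coordinates were not joined to mm9. Alternatives covered the pseudocount, the level, low rows, run definition, block size, scaling and leaving out each library.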

Additional observations from a re-analysis of the deposited data

How the results depend on the processing

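No paired analysis was possible because all libraries carry 1 group label. Over 7 summary values and 69 alternatives, 0 reversed and 12 moved by more than the spread between libraries (shares) or by over 1.5-fold (counts). Only the difference between clustered and isolated rows could be labelled reversed. Some alternatives left a value as it was by design. A gap of 5 rows and runs of 3 gave the same 72 clustered and 15 isolated rows, and adding 2-digit families left the clustered rows unchanged. The tally is therefore no measure of robustness. For the difference between clustered and isolated rows only the sign was compared, and its size moved by more than that spread in several alternatives. It ran from -1.23 to -1.09 when 1 library was left out and was -1.48 without 5 rows at each end of a run, -0.90 without rows listed at 0 throughout, -0.89 with the families of 2-digit number added and -2.30 with a pseudocount of 0.1 RPKM. The clustered share at 1 RPKM or more was 18.4% without the first and last Cyp row of each run, 12.1% without 5 rows at each end, 38.9% without rows listed at 0 throughout and 13.0% at a level of 5 RPKM. The isolated share was 69.2% without rows listed at 0 throughout, 49.5% with the families of 2-digit number added and 33.3% at 5 RPKM. Cyp rows above the level numbered 6, between 3 and 5 when 1 library was left out (3 without replicate 2), and 2 at 5 RPKM. Cyp rows below it numbered 12, 44 with rows listed at 0 throughout in the test, 2 with a mean of at least 0.1 RPKM required, and 21 at 5 RPKM. The first of these adds rows to the test and the second removes them. The shares called over all rows and blocks were taken in the main setting only. The row and run counts of the alternatives are therefore not compared with the table. Runs called below the table numbered 5 to 7 of 7, and 5 of 6 without 5 rows at each end, where Cyp3a had no row left, Cyp2d was gained and Cyp2j lost. In each alternative run, 0 were called above it. Depth is unknown, and values displaced between rows limit each single row.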
